A study of Rattus norvegicus with 16 samples.

Results

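The transforming growth factor beta (TGF-β) pathway was followed in rat kidney through 9 genes chosen by symbol, out of the 35849 genes of the deposited expression table. They are the ligands Tgfb1, Tgfb2 and Tgfb3, the receptors Tgfbr1 and Tgfbr2, the signal carrier Smad3, the inhibitor Smad7, and the effectors Tgm2 and Ccn2. The table lists connective tissue growth factor under its current symbol Ccn2 and not under Ctgf. The Ensembl identifiers of the genes that the results turn on are ENSRNOG00000020652 for Tgfb1, ENSRNOG00000007036 for Tgfbr1, ENSRNOG00000018359 for Smad7, ENSRNOG00000012956 for Tgm2 and ENSRNOG00000015036 for Ccn2. Each symbol matched exactly 1 row, and all 9 genes passed the filter on low counts in every comparison.

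TGF-β ligands are secreted in a latent form bound to the matrix. Once released, they bind the receptor Tgfbr2, which recruits and phosphorylates Tgfbr1, and Tgfbr1 in turn phosphorylates Smad2 and Smad3, which move to the nucleus and switch on matrix genes. Smad7 is induced by the same signal and blocks it at Tgfbr1, as a negative feedback. In the diabetic kidney this pathway is known for driving the build-up of collagen in glomeruli and between tubules.

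RNA was sequenced from the kidney of 16 male Sprague Dawley rats in 4 groups of 4, and the study asked how the plant alkaloid sinomenine (SIN) acts on diabetic nephropathy (DN). All rats were 6 to 8 weeks old at the start. The normal group received citrate buffer and a normal diet. The DN group received streptozotocin at 45 mg/kg, a toxin of the insulin-making cells, with a high-glucose and high-fat diet, and only rats whose blood glucose exceeded 16.7 mmol/L entered the study. The SIN (20 mg/kg) group and the SIN (40 mg/kg) group had the same streptozotocin and diet and were then given SIN by mouth every day for 8 weeks. By the abstract of the study, diabetic rats without SIN were given vehicle in its place. Whether normal rats also had vehicle is not stated. The DN group therefore differed from the normal group in toxin, diet and selection at once, and no group held SIN without diabetes. The labels name no batch. The serial codes of the libraries are consecutive inside every group, so anything that followed the order of those codes and the condition cannot be told apart.

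Totals ran from 19616312 to 25217030 estimated counts per rat. Markers of proximal tubule were abundant in every group, with summed levels between 6016 and 11190 CPM (counts scaled to library size by edgeR's cpm function, with TMM factors over the 16 rats). DN replicate 3 stood apart: the sum of 6 smooth muscle markers was 810.5 CPM there against 193.1 to 280.6 CPM in its 3 group mates, and the sum of 5 urothelium markers was 76.6 CPM against 1.01 to 8.08 CPM. Normal replicate 1 stood apart in the same lists, with 207.3 CPM for smooth muscle against 90.6 to 121.1 CPM and 45.1 CPM for urothelium against 2.39 to 5.16 CPM in the other normal rats. Values without these rats are given beside some of the results that they move. In bulk kidney, fewer cells of a type and less RNA per cell cannot be told apart.

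Promoter windows are shown for Ccn2, a textbook TGF-β target, and for Tgfb1 and Tgfbr1, whose levels differed between the DN and normal groups. The windows run from 250 bases before to 50 bases after the gene start, 5′ to 3′ on the strand of the gene, from RefSeq on build GRCr8. They lie at chr1:22624565-22624864 on the minus strand for Ccn2, chr1:90324062-90324361 on the plus strand for Tgfb1 and chr5:66449148-66449447 on the plus strand for Tgfbr1. Capitals mark the Smad box CAGAC and the TEAD site GGAATG, searched on both strands, and the TATA box TATAAA, searched on the strand of the gene.
Ccn2: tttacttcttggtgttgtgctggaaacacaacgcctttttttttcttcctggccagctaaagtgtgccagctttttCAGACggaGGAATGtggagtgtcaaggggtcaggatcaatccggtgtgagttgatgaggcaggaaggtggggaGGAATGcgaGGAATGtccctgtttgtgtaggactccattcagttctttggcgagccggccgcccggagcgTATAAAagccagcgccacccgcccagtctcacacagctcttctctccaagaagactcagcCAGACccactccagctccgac
Tgfb1: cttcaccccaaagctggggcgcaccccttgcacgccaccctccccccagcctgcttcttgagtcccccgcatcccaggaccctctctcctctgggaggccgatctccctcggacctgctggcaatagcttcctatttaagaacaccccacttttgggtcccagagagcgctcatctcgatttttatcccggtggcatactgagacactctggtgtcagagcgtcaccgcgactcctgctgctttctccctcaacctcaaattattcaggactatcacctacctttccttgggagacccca
Tgfbr1: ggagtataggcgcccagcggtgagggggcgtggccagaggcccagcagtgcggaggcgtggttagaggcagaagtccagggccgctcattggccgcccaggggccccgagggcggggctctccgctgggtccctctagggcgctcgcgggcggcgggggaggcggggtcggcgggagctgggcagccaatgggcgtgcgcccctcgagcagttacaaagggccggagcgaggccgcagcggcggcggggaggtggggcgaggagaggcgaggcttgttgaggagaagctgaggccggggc

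The Ccn2 window held 2 Smad boxes, 3 TEAD sites and 1 TATA box, and these matches did not overlap. TEAD factors are the DNA-binding partners of YAP, a sensor of cell tension. Of 33469 rat promoter windows of the same length, 50.1% held a Smad box, 14.2% a TEAD site and 8.8% a TATA box in the same searches. The AP-1 motif TGANTCA, also searched on both strands and present in 7.33% of all windows, was in none of the 8 windows found for the 9 genes. Smad boxes, TEAD sites and TATA boxes were found in the Ccn2 window and in 0 of the other 7 windows. A match is a run of letters and not a bound site. Tgm2 had no window in the RefSeq table used.

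Levels can be compared between genes only per length, as FPKM (here CPM per 1000 bases of the gene length in the table). Over the 16 rats Tgfbr2 had the highest mean level of the 9 genes, 60.0 FPKM, which was above 90.2% of the 16404 genes with a level. Ccn2 followed at 43.8 FPKM and Tgm2 at 43.1 FPKM. Tgfb1 was at 12.3 FPKM and Smad3 at 12.1 FPKM, while Tgfbr1 was at 6.81 FPKM and Smad7 at 6.24 FPKM. The other ligands were scarce, with 1.69 FPKM for Tgfb2 and 1.36 FPKM for Tgfb3. Tgfb1 was thus the main ligand transcript, and the type II receptor transcript outweighed the type I receptor transcript.

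**Figure D1:**
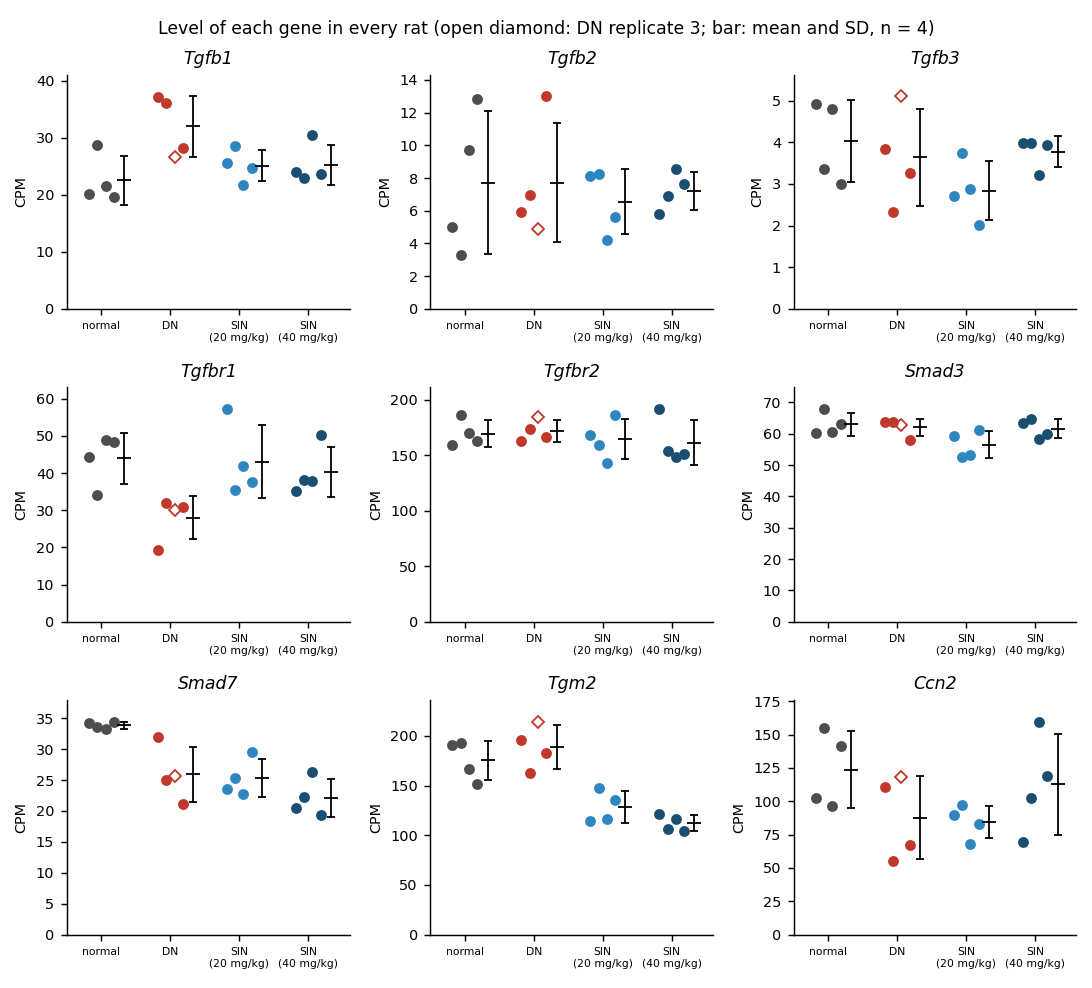
Level in CPM (vertical axes, from 0) of each of the 9 genes in every rat of the 4 groups, with the mean and SD beside the points (n = 4). Tgm2 lies between 104.5 and 147.9 CPM in the 8 SIN rats and between 151.8 and 214.4 CPM in the 8 other rats, and the lowest Tgfbr1 point is DN replicate 1 at 19.4 CPM.

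The spread between rats differed among the 9 genes. Smad3 had a coefficient of variation of 4.40% to 7.49% within the groups. Smad7 varied by 1.67% in the normal group and by 12.1% to 17.1% in the other 3 groups. Tgfb2 varied most in the normal group (56.6%) and the DN group (47.4%), and its 16 values ran from 3.27 to 13.0 CPM. Ccn2 varied by 14.5% to 35.4% within the groups. The means of the 4 groups spanned the widest range in Tgm2, where the highest was 1.68 times the lowest, followed by Tgfbr1 with 1.57 times and Smad7 with 1.53 times, and the narrowest in Tgfbr2 with 1.06 times.

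The DN group was first compared with the normal group, the question being what the diabetic kidney does to the pathway. The ligand Tgfb1 was higher and its receptor Tgfbr1 was lower in the DN group, and these 2 of the 9 genes passed an adjusted p under 0.05 in edgeR's quasi-likelihood test over 15777 genes. Among all genes tested 19.5% passed, so the share of these 9 was close to the background. The same test at an unadjusted p under 0.05 took in 3 of 9, with Smad7 as the third, against 36.9% of all genes. The groups did not overlap in 2 of 9, Tgfbr1 and Smad7, both lower in the DN group, against 24.3% of all genes.

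Tgfb1 was at 20.2, 28.8, 21.5 and 19.6 CPM in the normal rats and at 37.1, 36.1, 26.6 and 28.2 CPM in the DN rats. The DN rats were higher except that normal replicate 2 lay above DN replicates 3 and 4, so the groups overlapped. Tgfb1 was 1.42 times as high in the DN group, or 0.51 on the log2 scale (standard error 0.16, 95% interval 0.15 to 0.86, edgeR quasi-likelihood adjusted p = 0.0493). This call is close to the threshold. It ended without DN replicate 1 (adjusted p = 0.12), 2 (0.121) or 4 (0.0527) and without normal replicate 1 (0.113), 3 (0.12) or 4 (0.136), and it held without DN replicate 3 (0.0427) or normal replicate 2 (0.0191). With the replicate number as a block the adjusted p was 0.0591. Tgfb2 was at 7.71 ± 4.36 CPM in the normal group and 7.71 ± 3.65 CPM in the DN group (SD, n = 4 each), and Tgfb3 at 4.03 ± 0.983 and 3.64 ± 1.17 CPM. Their intervals on the log2 scale were wide, −0.99 to 0.97 for Tgfb2 and −0.77 to 0.48 for Tgfb3.

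Tgfbr1 was at 44.5, 34.2, 48.8 and 48.5 CPM in the normal rats and at 19.4, 31.8, 29.9 and 30.8 CPM in the DN rats. Every DN rat was below every normal rat, and DN replicate 1 was the lowest of all. Tgfbr1 fell by 0.66 on the log2 scale in the DN group (standard error 0.17, 95% interval −1.04 to −0.27, edgeR quasi-likelihood adjusted p = 0.0303). Without DN replicate 3 the log2 fold change was −0.69 (adjusted p = 0.0483), and without DN replicate 1 it was −0.51 (adjusted p = 0.0474). The call ended without DN replicate 2 (adjusted p = 0.0535) or normal replicate 1 (0.0639), 3 (0.0865) or 4 (0.0893) and with the replicate number as a block (0.0619). The partner receptor Tgfbr2 was at 169.6 ± 12.3 CPM in the normal group and 172.0 ± 9.64 CPM in the DN group (SD, n = 4 each), with a log2 fold change of 0.02 and an interval of −0.18 to 0.21. With DN replicate 3 left out, the log2 fold change over normal was −0.015 for Tgfbr2, 0.16 for Tgfb2 and −0.35 for Tgfb3.

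Smad7, the feedback inhibitor, was at 34.2, 33.6, 33.2 and 34.5 CPM in the normal rats and at 31.9, 25.1, 25.6 and 21.2 CPM in the DN rats. Every DN rat was below every normal rat, and the normal rats lay within a narrow range. Its log2 fold change of −0.38 had a standard error of 0.12 and, in the quasi-likelihood test of edgeR, an adjusted p of 0.0528, just short of the threshold. Smad7 passed with DESeq2 (adjusted p = 0.0332), in the exact test of edgeR (0.0496) and in a joint fit of the 16 rats (0.0392). It did not pass with the replicate number as a block (0.0832), with no filter (0.0674) or in 7 of the 8 fits that each left out 1 rat (0.0666 to 0.128). Smad3, which carries the signal, was at 63.0 ± 3.59 and 62.0 ± 2.73 CPM in the normal and DN groups (SD, n = 4 each), with a log2 fold change of −0.02 and a narrow interval of −0.20 to 0.15.

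Of the effectors, Tgm2 encodes transglutaminase 2, which cross-links matrix proteins and can help to release latent TGF-β, and Ccn2 encodes a secreted matrix protein that assists TGF-β. Tgm2 had a log2 fold change of 0.11 in the DN group over the normal group (95% interval −0.15 to 0.36, edgeR quasi-likelihood adjusted p = 0.535), and of 0.04 without DN replicate 3. Ccn2 was at 103, 155, 96.4 and 141 CPM in the normal rats and at 110.5, 55.3, 117.8 and 67.4 CPM in the DN rats. DN replicates 2 and 4 were below every normal rat and the other 2 DN rats were not. Ccn2 had a log2 fold change of −0.50, with a standard error of 0.25 (edgeR quasi-likelihood adjusted p = 0.183), and without DN replicate 3 it was −0.67 (adjusted p = 0.103).

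**Figure D2:**
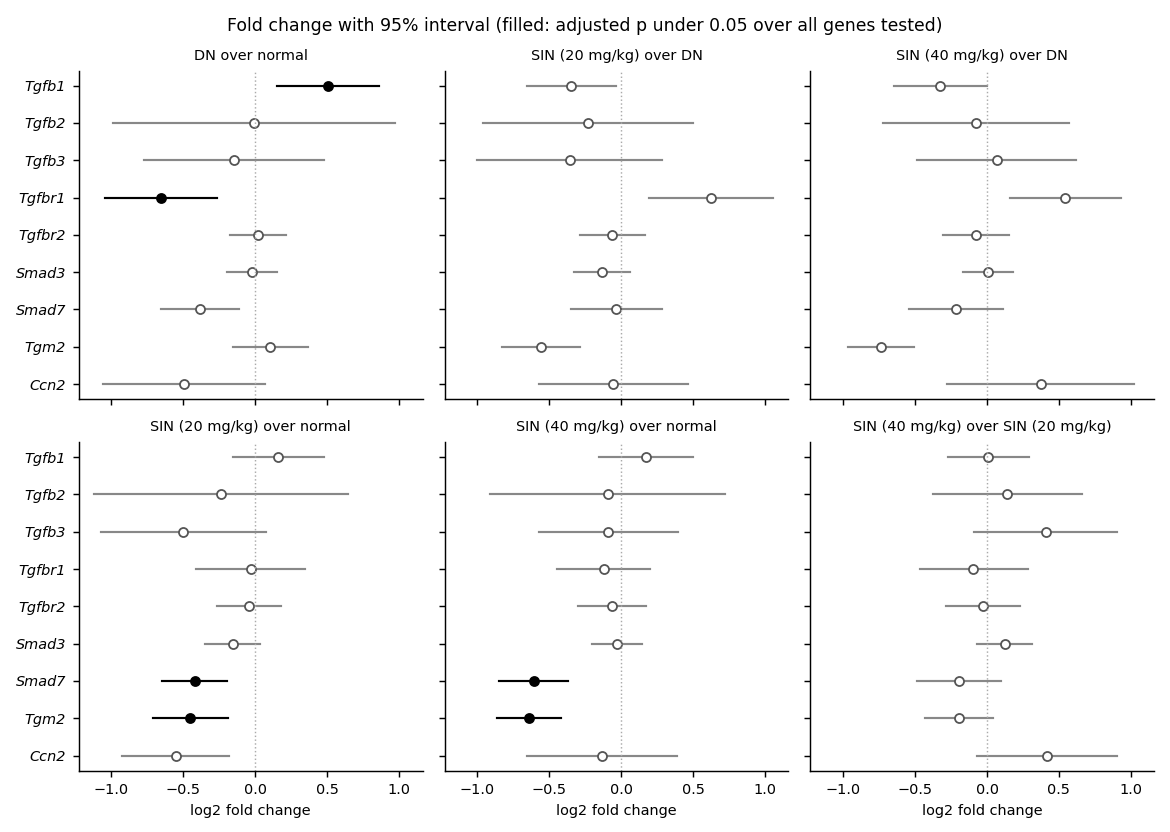
Log2 fold change (horizontal axes) of the 9 genes in the 6 comparisons, with 95% intervals from edgeR's quasi-likelihood test and filled points where the adjusted p is under 0.05. Filled points are Tgfb1 (0.51) and Tgfbr1 (−0.66) in DN over normal, Smad7 and Tgm2 in each SIN group over normal, and none in the other 3 comparisons.

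Each SIN group was then compared with the DN group, to ask what SIN does in diabetic rats. Both comparisons use the same 4 DN rats, so the doses do not give separate evidence. These DN rats also stand in DN over normal, so opposite signs there and here are not separate evidence. No gene of the table passed an adjusted p under 0.05 by edgeR's quasi-likelihood test at 20 mg/kg (0% of 15725 genes) or at 40 mg/kg (0% of 15530 genes), and 0 of the 9 genes did at each dose. At an unadjusted p under 0.05, 3 of 9 passed at 20 mg/kg (15.4% of all genes) and 3 of 9 at 40 mg/kg (17.1% of all genes): Tgm2, Tgfbr1 and Tgfb1 at each dose. The groups did not overlap in 2 of 9 at each dose, Tgm2 and Tgfbr1, against 8.85% of all genes at 20 mg/kg and 10.7% at 40 mg/kg. DESeq2 called 220 genes at 20 mg/kg and 424 at 40 mg/kg, and the exact test of edgeR 89 and 158. Each of these tools called 1 of the 9 genes at each dose, Tgm2.

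Tgm2 was at 195.9, 162.3, 214.4 and 182.5 CPM in the DN rats. It was at 114, 147.9, 116.1 and 135.2 CPM in the SIN (20 mg/kg) rats and at 121.8, 105.9, 116.1 and 104.5 CPM in the SIN (40 mg/kg) rats. Every SIN rat was below every DN rat. The log2 fold change was −0.56 at 20 mg/kg (standard error 0.12, adjusted p = 0.27 by the quasi-likelihood test of edgeR) and −0.74 at 40 mg/kg (standard error 0.10, adjusted p = 0.14 by the same test). Ranked by p, Tgm2 was gene 55 of 15725 at 20 mg/kg and gene 4 of 15530 at 40 mg/kg. With DESeq2 the adjusted p was 0.00691 at 20 mg/kg and 2.21e-07 at 40 mg/kg, in the exact test of edgeR 0.0356 and 5.81e-05, and in a joint quasi-likelihood fit of the 16 rats 0.0915 and 0.0413. Over all alternatives it ran up to 0.545 at 20 mg/kg and 0.392 at 40 mg/kg. Without DN replicate 3, which had the highest Tgm2 level, the log2 fold changes were −0.49 (adjusted p = 0.301) and −0.67 (adjusted p = 0.0871). The sum of 5 endothelial markers was 304.3 ± 14.4 CPM without SIN, 297.3 ± 19.8 CPM at 20 mg/kg and 314.3 ± 8.47 CPM at 40 mg/kg (SD, n = 4 diabetic rats each). In the same order, the smooth muscle markers summed to 372.5 ± 294.5, 159.8 ± 18.15 and 178.9 ± 9.39 CPM. The fibroblast and pericyte markers summed to 344.5 ± 49.3, 289.2 ± 38.3 and 294.7 ± 21.4 CPM. Distal nephron sums were higher with SIN, at 3896 ± 1007, 4107 ± 333.1 and 3934 ± 394 CPM. DN replicate 3 had the highest smooth muscle and urothelium sums of its group. The part of the cell types in the level of Tgm2 was not tested.

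Tgfbr1 was at 57.4, 35.4, 41.9 and 37.7 CPM in the SIN (20 mg/kg) rats and at 35.2, 38.0, 38.0 and 50.2 CPM in the SIN (40 mg/kg) rats. Every SIN rat was above every DN rat, whose highest level was 31.8 CPM. The log2 fold change was 0.62 at 20 mg/kg (standard error 0.19, edgeR quasi-likelihood adjusted p = 0.27) and 0.54 at 40 mg/kg (standard error 0.17, adjusted p = 0.206). The adjusted p over the alternatives ran from 0.0874 to 0.545 at 20 mg/kg and from 0.0917 to 0.451 at 40 mg/kg. Tgfbr2 had log2 fold changes of −0.06 and −0.08 with intervals of −0.29 to 0.17 and −0.31 to 0.15. The ratio of Tgfbr2 to Tgfbr1 per length was 8.13 ± 2.04 in normal rats and 13.0 ± 2.89 in DN rats (SD, n = 4 each). It was 8.11 ± 1.91 with SIN at 20 mg/kg and 8.42 ± 2.07 at 40 mg/kg (SD, n = 4 each).

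Tgfb1 was at 25.6, 28.5, 21.8 and 24.7 CPM in the SIN (20 mg/kg) rats and at 24.1, 22.9, 30.5 and 23.7 CPM in the SIN (40 mg/kg) rats, and both groups overlapped with the DN rats. Its log2 fold change was −0.35 at 20 mg/kg (standard error 0.14, edgeR quasi-likelihood adjusted p = 0.304) and −0.33 at 40 mg/kg (standard error 0.14, adjusted p = 0.29). Tgfb2 again had a wide interval at 20 mg/kg, from −0.96 to 0.50 on the log2 scale. Smad3 had log2 fold changes of −0.13 and 0.005 at the 2 doses, and Smad7 of −0.03 and −0.22. The intervals of Smad7 were −0.35 to 0.28 at 20 mg/kg and −0.54 to 0.11 at 40 mg/kg. When DN replicate 3 was left out, the log2 fold changes at 20 and 40 mg/kg were −0.40 and −0.24 for Tgfb2, −0.15 and 0.28 for Tgfb3 and −0.03 and −0.04 for Tgfbr2.

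Ccn2 was at 89.4, 97.1, 68.3 and 82.6 CPM in the SIN (20 mg/kg) rats and at 69.3, 102.1, 159.7 and 119.0 CPM in the SIN (40 mg/kg) rats. The 40 mg/kg rats were widely spread, and 3 of them were above every 20 mg/kg rat. The log2 fold change over the DN group was −0.06 (95% interval −0.57 to 0.46) at 20 mg/kg and 0.37 (−0.28 to 1.02) at 40 mg/kg. With DN replicate 3 left out these values were 0.12, on the other side of 0, and 0.55. Neither difference passed the test with or without that rat.

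**Figure D3:**
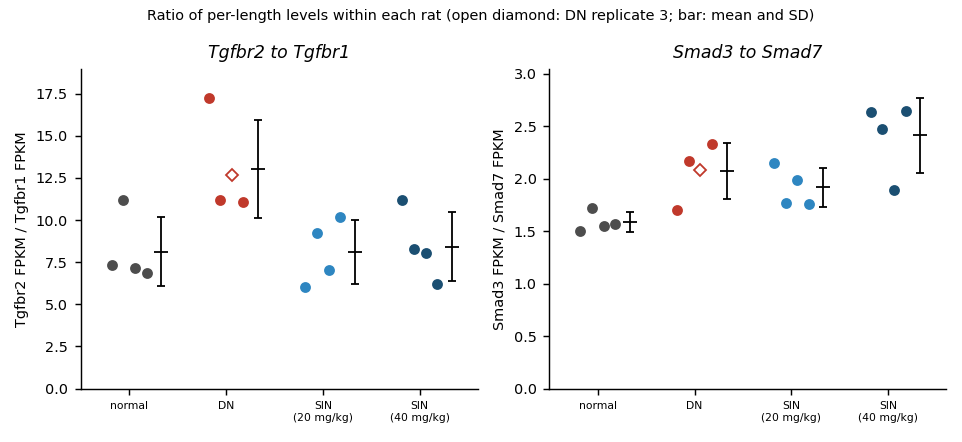
Ratio of the level per length of Tgfbr2 to Tgfbr1 and of Smad3 to Smad7 within each rat (vertical axes, from 0), with the mean and SD of each group (n = 4). The ratio of the receptors is 11.1 to 17.2 in the DN rats and 6.02 to 11.2 in the other 12 rats. The ratio of Smad3 to Smad7 is at most 1.72 in the normal rats and overlaps with the DN rats, at 1.70 to 2.33. It is at least 1.76 in the SIN (20 mg/kg) rats and 1.89 in the SIN (40 mg/kg) rats.

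Between the doses, SIN (40 mg/kg) against SIN (20 mg/kg), the quasi-likelihood test of edgeR called 1 of 15657 genes (0.00639%) and 0 of the 9. At an unadjusted p under 0.05 it took in 0 of 9, against 4.98% of all genes, and DESeq2 and edgeR's exact test also called 0 of the 9. The groups overlapped in each of the 9 genes, while 3.3% of all genes did not overlap. Tgm2 had a log2 fold change of −0.19 between the doses (95% interval −0.43 to 0.04), Smad7 of −0.19 (−0.48 to 0.10), Tgfbr1 of −0.09 (−0.47 to 0.28) and Tgfb1 of 0.01 (−0.27 to 0.29). The differences in Ccn2, 0.42 (−0.07 to 0.90), and Tgfb3, 0.41 (−0.09 to 0.91), were the largest of the 9. These intervals leave room for a dose effect, so the doses are not shown to act alike.

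The SIN groups were last set against the normal group, to see where treated diabetic rats lie. Smad7 and Tgm2 were lower than in the normal group at both doses. At 20 mg/kg these were 2 of 9 called by edgeR's quasi-likelihood test, against 6.35% of 15877 genes, and at 40 mg/kg the same 2 of 9, against 5.97% of 15735 genes. At an unadjusted p under 0.05 the counts were 3 of 9 at 20 mg/kg (20.8% of all genes), with Ccn2 as the third, and 2 of 9 at 40 mg/kg (22.9%). The groups did not overlap in 2 of 9 at each dose, again Smad7 and Tgm2, against 13.6% of all genes at 20 mg/kg and 13.9% at 40 mg/kg. The same 4 normal rats stand in these comparisons and in that with the DN group.

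Smad7 was at 23.5, 25.4, 22.8 and 29.6 CPM in the SIN (20 mg/kg) rats and at 20.5, 22.3, 26.3 and 19.3 CPM in the SIN (40 mg/kg) rats. Every SIN rat was below every normal rat, whose lowest level was 33.2 CPM. Smad7 fell by 0.42 on the log2 scale at 20 mg/kg (standard error 0.10, edgeR quasi-likelihood adjusted p = 0.0383) and by 0.61 at 40 mg/kg (standard error 0.11, adjusted p = 0.0104). At 40 mg/kg the call held in each of the 15 alternatives, with adjusted p from 4.16e-05 to 0.0417. From high to low, the group means ran from normal over DN to the lower and then the higher SIN dose, and neighbours after the normal group overlapped. With Smad3 steady, the ratio of Smad3 to Smad7 per length was 1.59 ± 0.0955 in normal rats and 2.07 ± 0.268 in DN rats (SD, n = 4 each). It was 1.92 ± 0.187 with SIN at 20 mg/kg and 2.41 ± 0.354 at 40 mg/kg (SD, n = 4 each).

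Tgm2 was at 190.7, 192.7, 166.5 and 151.8 CPM in the normal rats, above every SIN rat. It fell by 0.45 on the log2 scale at 20 mg/kg (standard error 0.12, edgeR quasi-likelihood adjusted p = 0.0492) and by 0.64 at 40 mg/kg (standard error 0.10, adjusted p = 0.00597). At 40 mg/kg the call held in each of the 15 alternatives, with adjusted p from 1.39e-06 to 0.0293. The 20 mg/kg calls were less firm. Of the 8 fits that each left out 1 rat, Smad7 kept its call in 1, without SIN (20 mg/kg) replicate 4 (adjusted p = 0.0234), and Tgm2 in 1, without SIN (20 mg/kg) replicate 2 (0.0467). In the other 7 the adjusted p rose to between 0.0611 and 0.119 for Smad7 and between 0.059 and 0.139 for Tgm2. With the replicate number as a block the adjusted p at 20 mg/kg was 0.0683 for Smad7, 0.0748 for Tgm2 and 0.0461 for Ccn2.

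Tgm2 overlapped between the normal and DN groups and was lower in both SIN groups than in the normal group. Tgfb1 and Tgfbr1 differed between the DN and normal groups, and in neither was a SIN group apart from the normal group by the test. The log2 fold change over normal was 0.16 (95% interval −0.16 to 0.48) and 0.17 (−0.15 to 0.50) for Tgfb1 at 20 and 40 mg/kg. For Tgfbr1 it was −0.03 (−0.41 to 0.35) and −0.12 (−0.45 to 0.20). Ccn2 was lower than normal by 0.55 on the log2 scale at 20 mg/kg without passing the test (log2 fold change −0.55, edgeR quasi-likelihood adjusted p = 0.0858, against 0.0246 with DESeq2 and 0.0319 in edgeR's exact test, which both called it), and at 40 mg/kg its log2 fold change was −0.13 (−0.66 to 0.39).

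Other genes of the pathway were grouped in lists. The TGF-beta branch list holds latency proteins, co-receptors, Smad partners and inhibitors. In the DN group over the normal group, 4 of its 31 tested genes rose and 4 fell, with a median log2 fold change of 0.004 against 0.002 over all genes. Of all genes 8.74% rose and 10.8% fell, so these counts were near the background. Skil, a repressor of Smad2 and Smad3 that is itself a target of the pathway, fell by 1.22 on the log2 scale, from 51.1 ± 9.84 to 22.0 ± 5.39 CPM (SD, n = 4 each, edgeR quasi-likelihood adjusted p = 0.00738). Usp15, which protects Tgfbr1 from ubiquitin, fell by 0.65 (adjusted p = 0.0144 by the same test). Ltbp4, which anchors latent TGF-β to the matrix, rose by 0.63 (adjusted p = 0.0151), and Tgfb1i1, a focal adhesion protein induced by TGF-β, rose by 0.76 (adjusted p = 0.0152). The counts were also 4 and 4 without DN replicate 3 (7.35% and 8.87% of all genes), and 2 and 3 without normal replicate 1 (4.26% and 5.9%).

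In the list of TGF-beta targets and fibrosis effectors, 5 of 29 tested genes rose in the DN group and 0 fell, against 8.74% and 10.8% of all genes, with a median log2 fold change of 0.36. At an unadjusted p under 0.05, 9 were higher and 4 lower, against 17.6% and 19.4% of all genes. Loxl1, which cross-links elastin, was at 44.8 ± 2.92 CPM in the normal group and 66.5 ± 3.91 CPM in the DN group (SD, n = 4 each), a log2 fold change of 0.57 (edgeR quasi-likelihood adjusted p = 0.00498). Tagln, an actin-binding protein of contractile cells, rose by 1.81 on the log2 scale (adjusted p = 0.00641 by the same test). The intermediate filament gene Vim rose by 0.46 (adjusted p = 0.0154) and the matrix protein gene Tgfbi by 0.53 (adjusted p = 0.021). The fifth was the collagen gene Col1a1, with 1.08 (adjusted p = 0.0263), named here as it completes the count.

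Without normal replicate 1 the counts of this list were again 5 and 0 (4.26% and 5.9% of all genes), with a median of 0.36. Without DN replicate 3 the median was 0.25, 4 genes rose and 1 fell (7.35% and 8.87% of all genes). The call of Col1a1 ended there (log2 fold change 0.93, adjusted p = 0.0531), and the oxidase gene Nox4, chosen after its value was seen, fell by 0.96 on the log2 scale (edgeR quasi-likelihood adjusted p = 0.0467, against −0.77 and 0.0728 with all rats). Tagln had a log2 fold change of 1.57 without that rat (adjusted p = 0.0135). The smooth muscle marker list, which shares Tagln and Acta2 with this list, had a median log2 fold change of 1.41 over its 6 genes with all rats and 0.07 without DN replicate 3, and its part in these calls was not tested. Its sum ran from 90.6 to 207.3 CPM in the normal rats and from 193.1 to 810.5 CPM in the DN rats, while the sum of 6 fibroblast and pericyte markers was 295.7 to 359.3 CPM and 301.5 to 415.4 CPM.

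In the SIN groups over the DN group, 0 genes of the list of targets and effectors passed edgeR's quasi-likelihood test. At an unadjusted p under 0.05, 10 of 30 were lower and 1 higher at 20 mg/kg, and 12 were lower and 2 higher at 40 mg/kg. Over all genes 6.25% were lower and 9.19% higher by that threshold at 20 mg/kg, and 7.21% and 9.9% at 40 mg/kg. The medians of the list were −0.30 and −0.34, against −0.007 and 0.007 over all genes. Without DN replicate 3 the medians were −0.27 and −0.28, with 9 and 10 genes lower and 2 and 3 higher. Over all genes 6.28% and 7.73% were then lower, and 9.12% and 9.93% higher. The lists of cell-type markers differed among themselves at 20 and 40 mg/kg over DN. Those of endothelium, leukocytes, podocytes, proximal tubule and distal nephron had medians from −0.15 to 0.26. The fibroblast and pericyte list, which shares Col1a1 with the targets and effectors, had medians of −0.26 and −0.29. Without DN replicate 3 they were −0.13 and −0.04. The smooth muscle list, which shares Tagln and Acta2, had medians of −1.38 and −1.15. In it 5 of 6 genes were lower at an unadjusted p under 0.05 at each dose. Without DN replicate 3 its medians were −0.39 and −0.18. The urothelium list had medians of −1.75 and −2.02, and 0.57 and 0.16 without that rat. Their part in the values of the targets and effectors was not tested. Col1a1, also named above, had log2 fold changes of −0.89 (adjusted p = 0.27) and −0.82 (adjusted p = 0.174) with all rats by edgeR's quasi-likelihood test.

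The TGF-beta branch list had 0 genes called in the SIN groups over the DN group, with 7 of 31 at an unadjusted p under 0.05 at 20 mg/kg and 14 at 40 mg/kg, with 4 and 8 higher and 3 and 6 lower, against 15.4% and 17.1% of all genes in either direction. Over the normal group, 1 rose and 1 fell at 20 mg/kg (2.77% and 3.58% of all genes), and 1 rose and 2 fell at 40 mg/kg (2.28% and 3.69%). These counts were the same without normal replicate 1 (1.78% and 2.59% of all genes at 20 mg/kg, 1.2% and 2.4% at 40 mg/kg). Pmepa1, a Smad target that dampens the pathway, fell by 0.75 on the log2 scale at 20 mg/kg (edgeR quasi-likelihood adjusted p = 0.0176) and by 0.95 at 40 mg/kg (adjusted p = 0.00123). In DN over normal its log2 fold change was −0.55 (adjusted p = 0.194 by the same test). Skil fell by 0.73 at 40 mg/kg (adjusted p = 0.0175), and Ltbp4 rose by 0.49 (adjusted p = 0.0152) and 0.55 (adjusted p = 0.00431). Of the targets and effectors, Tagln rose at both doses, by 0.95 (adjusted p = 0.0297) and 1.07 (adjusted p = 0.0112), and Vim at 20 mg/kg by 0.45 (adjusted p = 0.0193), which makes 2 of 29 at 20 mg/kg and 1 of 29 at 40 mg/kg, with 0 lower. Without normal replicate 1 it was 1 at each dose.

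The BMP and activin branch is the sister pathway, which signals through other receptors, and whose BMP ligands are known to oppose TGF-β in kidney. In the DN group over normal, 4 of its 28 tested genes rose and 5 fell, against 8.74% and 10.8% of all genes, with a median log2 fold change of −0.05. Gdf15, a stress-induced ligand, rose by 1.01 on the log2 scale (edgeR quasi-likelihood adjusted p = 0.011). The BMP targets Id3 and Id4 fell by 0.61 (adjusted p = 0.0119) and 0.70 (adjusted p = 0.0148), and the receptor gene Acvr2a fell by 0.73 (adjusted p = 0.0154). Without DN replicate 3 the counts were 3 and 5 (7.35% and 8.87% of all genes), and without normal replicate 1 they were 2 and 5 (4.26% and 5.9%). No gene of this list was called in the SIN groups over the DN group, where 2 of 28 at 20 mg/kg and 8 at 40 mg/kg had an unadjusted p under 0.05 (15.4% and 17.1% of all genes). Over normal, 3 rose and 3 fell at 20 mg/kg (2.77% and 3.58% of all genes) and 2 rose and 3 fell at 40 mg/kg (2.28% and 3.69%). Without normal replicate 1 the counts were 2 and 1 at 20 mg/kg (1.78% and 2.59%) and 0 and 3 at 40 mg/kg (1.2% and 2.4%). Id4 fell by 1.02 at 20 mg/kg (adjusted p = 0.00159) and 0.77 at 40 mg/kg (adjusted p = 0.0104), and Id3 by 0.84 at 40 mg/kg (adjusted p = 0.00114). Sostdc1 and Grem1, secreted BMP antagonists, rose by 0.77 (adjusted p = 0.0179) and 0.98 (adjusted p = 0.0308) at 20 mg/kg. Grem1 also rose at 40 mg/kg, by 1.34 (adjusted p = 0.0366). Id2, another BMP target, fell by 0.54 (adjusted p = 0.0365) and 0.82 (adjusted p = 0.0138) at the lower and higher dose. These directions were also those of DN over normal without SIN. There the log2 fold change was 1.12 for Sostdc1 (edgeR quasi-likelihood adjusted p = 0.0474), 0.79 for Grem1 (0.119) and −0.42 for Id2 (0.0558). In the SIN groups over DN, Sostdc1 had −0.35 and −0.51.

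**Figure D4:**
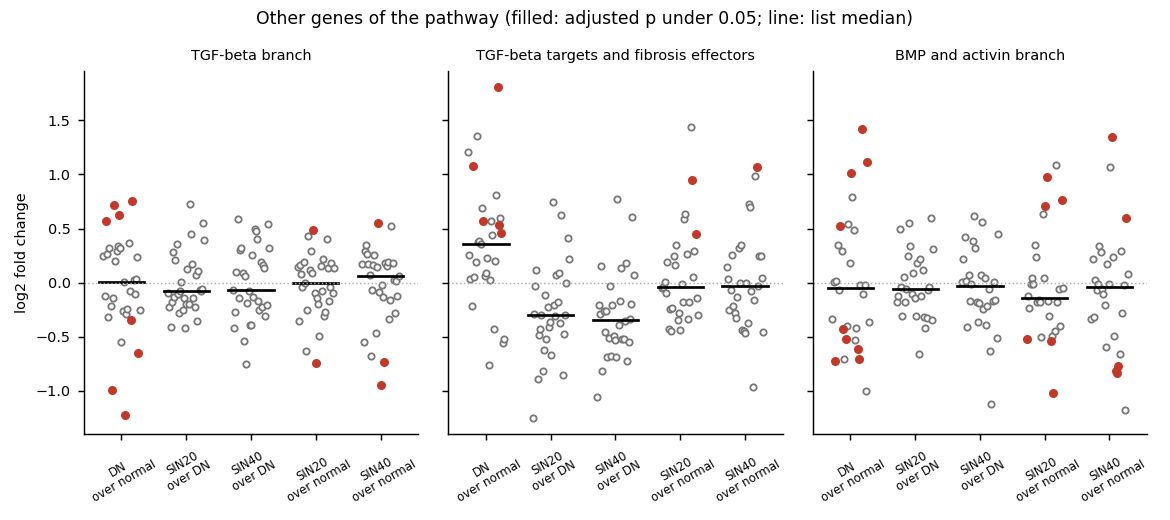
Log2 fold change (vertical axis) of every tested gene of the 3 lists in 5 comparisons, where SIN20 and SIN40 name the groups by their dose in mg/kg, filled points have an adjusted p under 0.05 and lines are list medians. The line of targets and effectors lies at 0.36 in DN over normal and at −0.30 and −0.34 in the SIN groups over DN. It lies at −0.04 and −0.03 in the SIN groups over normal. The same DN rats enter the first 3 comparisons with opposite sign.

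Fold changes moved with gene length in these data. The genes tested were split by length into 10 bins of equal size. From the shortest to the longest bin, the median log2 fold change of DN over normal went from 0.06 to −0.15, and the share called lower went from 6.02% to 20.3%. For SIN (40 mg/kg) over DN the medians went from −0.06 to 0.16, and for SIN (20 mg/kg) over DN from 0.04 to 0.07 with a low of −0.04 between. With 5707 bases Tgfbr1 is the longest of the 9 genes and lies in the longest bin. Relative to the median of that bin, its log2 fold change was −0.50 in DN over normal, 0.55 in SIN (20 mg/kg) over DN and 0.39 in SIN (40 mg/kg) over DN, in place of −0.66, 0.62 and 0.54. For Tgfb1, with 2140 bases, the value in DN over normal was 0.48 in place of 0.51, and for Tgm2, with 3506 bases, the value in SIN (40 mg/kg) over DN was −0.78 in place of −0.74. In each rat, the median log2 level of the longest bin minus that of the shortest, each gene centred on its mean, was also taken. Over the 16 rats its Pearson's r with the 9 genes ran from −0.535 (Tgfb1) to 0.48 (Smad3). It was 0.44 for Tgfbr1 and −0.246 for Tgm2. These r are a description, and the part of gene length in these results was not tested.

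**Figure D5:**
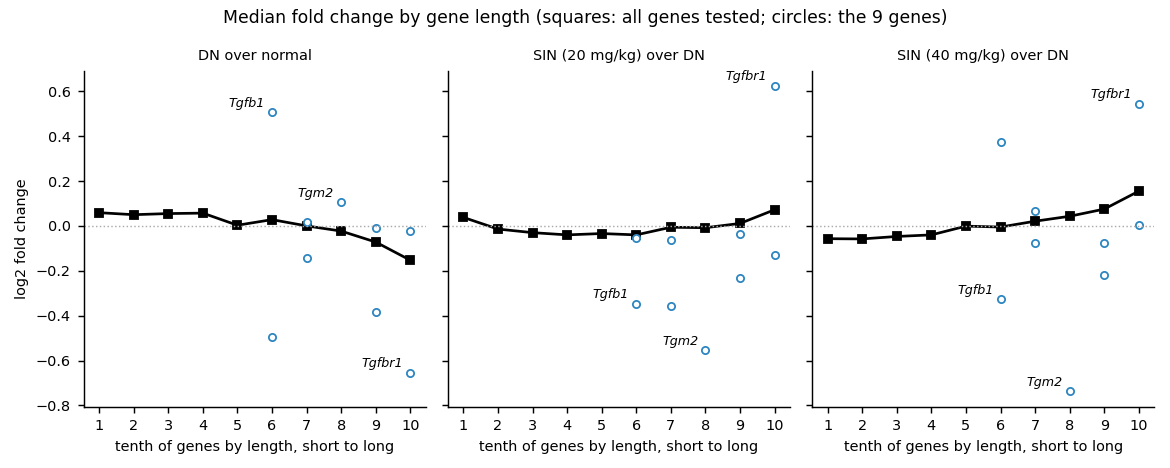
Median log2 fold change (vertical axis, squares) of all genes tested in 10 bins of gene length from short to long (horizontal axis), with the 9 genes as circles, in 3 comparisons. The squares fall from 0.06 to −0.15 in DN over normal, and Tgfbr1 lies at −0.66 there.

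The genes most like each of the 9 over the 16 rats were found by Pearson's r of log2 CPM among 16404 genes, as a description. Tgfbr1 had the closest match, Pafah1b1 (r = 0.979), followed by Atad1 (0.971) and Pkn2 (0.968). Tgm2 went with Ccdc69 (0.928), Gpr39 (0.903) and the duct keratin Krt7 (0.896). Ccn2 went with Dusp2 (0.931) and Apold1 (0.885), and Tgfb1 with Gipc1 (0.922), Csk (0.91) and Cmtm7 (0.903). Smad7 went with Tmem86a (0.911), Bmf (0.867) and Umod (0.863), the marker of the thick ascending limb. The closest matches of the other 4 genes were Plekhm3 for Smad3 (0.87), Hpf1 for Tgfb2 (0.759), Col7a1 for Tgfb3 (0.798) and, among named genes, Tspyl1 for Tgfbr2 (0.788). These r are the highest of many, and the rats share the 4 groups.

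Umod, named here because it follows Smad7, was at 3290 ± 304.4 CPM in the normal group and 1932 ± 409.9 CPM in the DN group, and at 1943 ± 131.8 CPM with 20 mg/kg and 1574 ± 140.6 CPM with 40 mg/kg of SIN (SD, n = 4 each). It fell in each of these 3 groups over normal, by 0.77, 0.76 and 1.06 on the log2 scale (edgeR quasi-likelihood adjusted p = 0.0154, 0.00289 and 0.000812). Umod belongs to the 5 distal nephron markers, whose mean sum was 4926 CPM in the normal group and 3896 CPM in the DN group. That sum was 4107 CPM with 20 mg/kg and 3934 CPM with 40 mg/kg of SIN. The other 4 markers did not share a direction. In DN over normal their log2 fold changes ran from −0.46 (Slc12a3) to 1.23 (Aqp2) and 0 of the 4 passed the test. At 40 mg/kg over normal Calb1 rose by 0.97 (edgeR quasi-likelihood adjusted p = 0.0217), and the median of the 5 was 0.18. The part of these cells in the level of Smad7 was not tested.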

How the data were processed

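Kidney RNA of 16 rats was enriched for mRNA with oligo(dT) and sequenced on an Illumina NovaSeq. The authors used SeqPrep and Sickle for trimming and TopHat for alignment to the rat genome Rnor_6.0. The authors deposited 1 table of estimated counts per gene, without normalization (74.3% of nonzero values whole). Their processing notes also name Bowtie, RSEM and edgeR. Columns were joined to rats by the number that ends each sample's description. Not used were 4 library columns that no sample record names, and the group means.

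Counts were rounded and tested with edgeR 4.0.16 in R 4.3.3 by the quasi-likelihood test (two-sided, TMM, filterByExpr, a fit of the 8 rats of each of 6 comparisons, Benjamini-Hochberg adjustment over all genes tested). The threshold was an adjusted p under 0.05. CPM values used TMM over 16 rats, and log2 CPM a prior count of 2. Alternatives were DESeq2 1.42.0, edgeR's exact test, RLE, no filter, at least 10 counts in every rat, a block for the replicate number, a joint fit of the 16 rats, other thresholds and each rat left out. The fits were tested on simulated data. Nothing says how samples of 1 group were housed, so p-values measure the spread between these rats.

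The 9 genes and the lists were chosen with earlier results of these data known. Named were the 9 genes, up to 4 called genes with the smallest p per list and comparison, and the 3 genes most like each of the 9. Some of the matching genes are left out of the text. The lists without DN replicate 3 or normal replicate 1 and the gene length values were added after seeing the data. Windows of RefSeq promoters came with build GRCr8. Python 3.11.15 drew the figures. Protein sequences were not used here.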

Additional observations from a re-analysis of the deposited data

Results flagged for a closer look

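In each of the 36 sets of 4 rats (9 genes in 4 groups) the highest or lowest rat was compared with the other 3 by Dixon's criterion, which chance meets in about 1 of 20 groups. It was met in 4 sets. Tgfb1 was at 30.5 CPM in SIN (40 mg/kg) replicate 3, far from the other rats of that group at 22.9 to 24.1 CPM. Tgfb3 was at 3.22 CPM (69 counts) in the same rat, below the others at 3.92 to 3.98 CPM (76 to 85 counts). Tgfbr1 was at 19.4 CPM in DN replicate 1, below the others at 29.9 to 31.8 CPM. Tgfbr2 was at 192.0 CPM in SIN (40 mg/kg) replicate 1, above the others at 148.4 to 154.1 CPM.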

How the results depend on the processing

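The 9 log2 fold changes were recomputed in 6 comparisons under 15 alternatives. Of 810 values 712 kept their direction and side of the threshold, 33 lost a call, 13 gained one and 52 changed sign. The SIN (40 mg/kg) over normal calls of Smad7 and Tgm2 held throughout at an adjusted p under 0.05. In DN over normal, 2 genes were called, 3 by DESeq2, the exact test of edgeR, the stricter count filter, the joint fit and at an unadjusted p, 2 with RLE, 1 with no filter, 0 with the replicate block, 0 where the log2 fold change also had to reach 1 and 0 to 2 with a rat left out. In SIN (20 mg/kg) over DN, 0 were called, 1 by DESeq2, 1 by the exact test of edgeR and 3 at an unadjusted p under 0.05. In SIN (40 mg/kg) over DN, 0 were called, 1 by DESeq2, 1 by the exact test, 1 in a joint fit of the 16 rats and 3 at an unadjusted p. In SIN (20 mg/kg) over normal, 2 were called, 3 by DESeq2, the exact test and at an unadjusted p, 2 with the stricter count filter, 1 with RLE, 0 with no filter, 1 in the joint fit, 1 with the replicate block, 0 where the log2 fold change also had to reach 1 and 0 to 1 with a rat left out. In SIN (40 mg/kg) over normal, the fold threshold left 0 of 2. Calls over all genes moved too. In DN over normal they were 3076 of 15777 genes, 4161 with DESeq2, 1326 with the block and 599 with the fold threshold. In SIN over DN they were 0 of 15725 at 20 mg/kg and 0 of 15530 at 40 mg/kg. DESeq2 called 220 and 424 there. In SIN over normal they were 1008 of 15877 at 20 mg/kg and 940 of 15735 at 40 mg/kg. DESeq2 called 1726 and 1764 there, and the fold threshold left 394 and 388. The cause of these moves was not tested, except that the fold threshold is stricter by construction.

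The replicate numbers share no stated origin. Same-numbered rats had deviations from their group means that correlated from −0.239 to 0.245 over 16404 genes, so the numbers were not taken as pairs. With the block, calls over all genes went from 3076 to 1326 in DN over normal. Leaving out a rat moved that count to between 770 and 3782, the lowest without normal replicate 4.

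The differences that changed sign had not passed the test with all rats. Tgfb2 in DN over normal became 0.005 with DESeq2, 0.003 with RLE and 0.079 with the block, and ran from −0.39 to 0.352 with a rat left out. Ccn2 in SIN (20 mg/kg) over DN became 0.004 with the block. In SIN (40 mg/kg) over DN, Smad3 became −0.01 with DESeq2, −0.009 with RLE and −0.01 in the joint fit, and Tgfb2 0.007 with the block. Tgfb2 in SIN (40 mg/kg) over normal became 0.067 with the block. With a rat left out, the ranges that crossed 0 in DN over normal were also −0.045 to 0.005 (Smad3), −0.351 to 0.02 (Tgfb3) and −0.015 to 0.055 (Tgfbr2). In SIN (20 mg/kg) over DN they were −0.223 to 0.119 (Ccn2), −0.119 to 0.079 (Smad7) and −0.397 to 0.147 (Tgfb2). In SIN (40 mg/kg) over DN they were −0.033 to 0.032 (Smad3), −0.241 to 0.297 (Tgfb2) and −0.094 to 0.275 (Tgfb3). In SIN (20 mg/kg) over normal they were −0.49 to 0.123 (Tgfb2), −0.202 to 0.053 (Tgfbr1) and −0.107 to 0.018 (Tgfbr2). In SIN (40 mg/kg) over normal they were −0.347 to 0.039 (Ccn2), −0.048 to 0.007 (Smad3), −0.349 to 0.263 (Tgfb2) and −0.209 to 0.023 (Tgfb3). Between the doses they were −0.089 to 0.076 (Tgfb1), −0.02 to 0.271 (Tgfb2), −0.213 to 0.082 (Tgfbr1) and −0.119 to 0.041 (Tgfbr2). Tgfb2 and Tgfb3, with as few as 67 and 43 counts in a rat, were the least precise.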
